A study of Mus musculus with 14 samples.

Results

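The prostaglandin synthesis and receptor genes described here were 10 listed genes: the cyclooxygenases Ptgs1 and Ptgs2, the terminal synthases Ptgis, Ptges, Ptgds and Hpgds, and the receptors Ptgfr, Ptger2, Ptger4 and Ptgir. A probe set named 9 of the 10, and Ptgs1 was not analysed here. The probe set of each gene was chosen by its brightness, as the one with the highest mean signal over the 14 arrays, and 8 of the 9 passed the filter used for testing, a signal that reached 200 on 1 array or more. These 8 stood among 11815 genes tested and 18193 named genes. The names were proposed with earlier results of the same arrays known. Ptgis in particular was already known as one of the most different genes in both comparisons, so its differences between groups are a description and carry no p-value.

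RNA was measured on Affymetrix arrays from 12 osteosarcomas of p53+/- mice (mice with 1 intact copy of the tumour suppressor p53), from 1 p53+/- mouse tumour labelled rhabdomyosarcoma, and from mc3T3, an untreated and non-tumorigenic mouse osteoblast line grown in alpha-MEM with serum. Groups were read from the sample titles, because every sample, tumours included, carries a description of mc3T3 cells. The tumours carry no treatment, age, strain or sex in the labels, which also do not say whether each came from a separate animal. The spread behind each p-value is thus that among 12 tumour samples, which may be in part technical. Each of the other groups was 1 array: their difference from the osteosarcomas was tested against the spread among the osteosarcomas, and a single culture or tumour cannot show how its own kind varies. Normal bone and p53-intact tumours were not analysed here.

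Prostaglandins are short-range lipid signals made from arachidonic acid, which phospholipases free from membranes. The cyclooxygenases convert it to the common precursor prostaglandin H, and separate terminal synthases turn that precursor into prostacyclin, prostaglandin E or prostaglandin D, each with its own G protein-coupled receptors. In bone, prostaglandin E is known to act on osteoblasts through its EP2 and EP4 receptors, which raise cyclic AMP, and to increase the osteoclast-inducing cytokine RANKL, the product of Tnfsf11.

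Ptgs2, Ptges, Ptgfr and Ptger2 each had their highest signal in the same tumour, osteosarcoma 11, and the 180 bases before their annotated RefSeq start sites (GRCm38.p6, gene strand, 5′ to 3′) are shown for that reason. Capitals mark matches on either strand to a GC box (GGGCGG), a cyclic AMP half-site (TGACG), an E-box (CACGTG) or a TATA box (TATAAA). Ptgs2 is at chr1:150099851-150100030 (plus strand), Ptges at chr2:30903298-30903477 (minus), Ptgfr at chr3:151837529-151837708 (minus) and Ptger2 at chr14:44987931-44988110 (plus).
Ptgs2: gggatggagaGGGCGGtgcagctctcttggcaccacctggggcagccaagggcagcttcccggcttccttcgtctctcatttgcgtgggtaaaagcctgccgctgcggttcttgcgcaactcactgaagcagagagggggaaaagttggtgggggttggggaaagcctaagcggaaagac
Ptges: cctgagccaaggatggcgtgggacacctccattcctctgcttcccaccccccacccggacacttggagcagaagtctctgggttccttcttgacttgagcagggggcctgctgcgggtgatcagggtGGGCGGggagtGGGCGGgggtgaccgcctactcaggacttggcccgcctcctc
Ptgfr: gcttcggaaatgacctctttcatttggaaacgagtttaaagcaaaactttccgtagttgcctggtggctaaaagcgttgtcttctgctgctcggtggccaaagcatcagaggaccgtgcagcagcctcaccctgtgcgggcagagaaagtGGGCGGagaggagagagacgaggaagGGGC
Ptger2: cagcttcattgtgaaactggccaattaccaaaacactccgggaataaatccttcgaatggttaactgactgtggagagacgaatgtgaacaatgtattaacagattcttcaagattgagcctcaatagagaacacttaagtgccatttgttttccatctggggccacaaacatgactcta
Ptgs2 held 1 GC box in this stretch, Ptges held 2, and Ptger2 held no match to any of the 4 motifs. The second GC box of Ptgfr begins 4 bases before the start and runs past it, so only its first letters are shown. Downstream of its start, Ptgs2 also held a cyclic AMP half-site, read on the opposite strand and beginning at base 14, that overlaps an E-box beginning at base 17 (both in capitals, chr1:150100034-150100060, plus strand).
Ptgs2 site: gtcaccactaCGTCACGTGgagtccgc
Among 32851 windows of 300 bases around the starts of 27025 genes, 35.7% held the GC box, 20.8% the half-site, 7.15% the E-box and 13.6% the TATA box. These windows are longer than the 180 bases shown, so the shares are not matched to those stretches. Among the listed genes not shown, Ptger4 held GC boxes beginning at -148, -143, -95 and -42 from its start, and Ptgir at -76 and -13. Ptgs1, Ptgds and Hpgds held no match to the 4 motifs, and Ptgis had no promoter entry. GC boxes were thus not particular to the genes highest in osteosarcoma 11. These matches describe letters only.

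Ptgis was above both single arrays in every osteosarcoma, while Ptges and Ptgfr were highest in mc3T3 and Hpgds, Ptger2 and Ptger4 in the tumour labelled rhabdomyosarcoma. Against mc3T3, 1 of the 8 genes tested passed the threshold (a limma p below 0.05 after adjustment, with a log2 change of 1 or more) as higher, Ptgis, which was known to pass when it was listed, and 0 passed as lower. Over all genes tested, 8.59% passed as higher and 4.58% as lower. In the tumour labelled rhabdomyosarcoma against the osteosarcomas, 0 of 8 passed as higher and 1 of 8 as lower, again Ptgis, beside 1.19% and 1.76% of all genes. The median difference over the 8 genes was 0.32 (osteosarcoma minus mc3T3) and 1.13 (labelled rhabdomyosarcoma minus osteosarcoma) on the log2(signal + 30) scale, beside -0.02 and 0.05 over all genes. Both comparisons use the same 12 osteosarcomas. They are therefore given side by side.

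**Figure D1:**
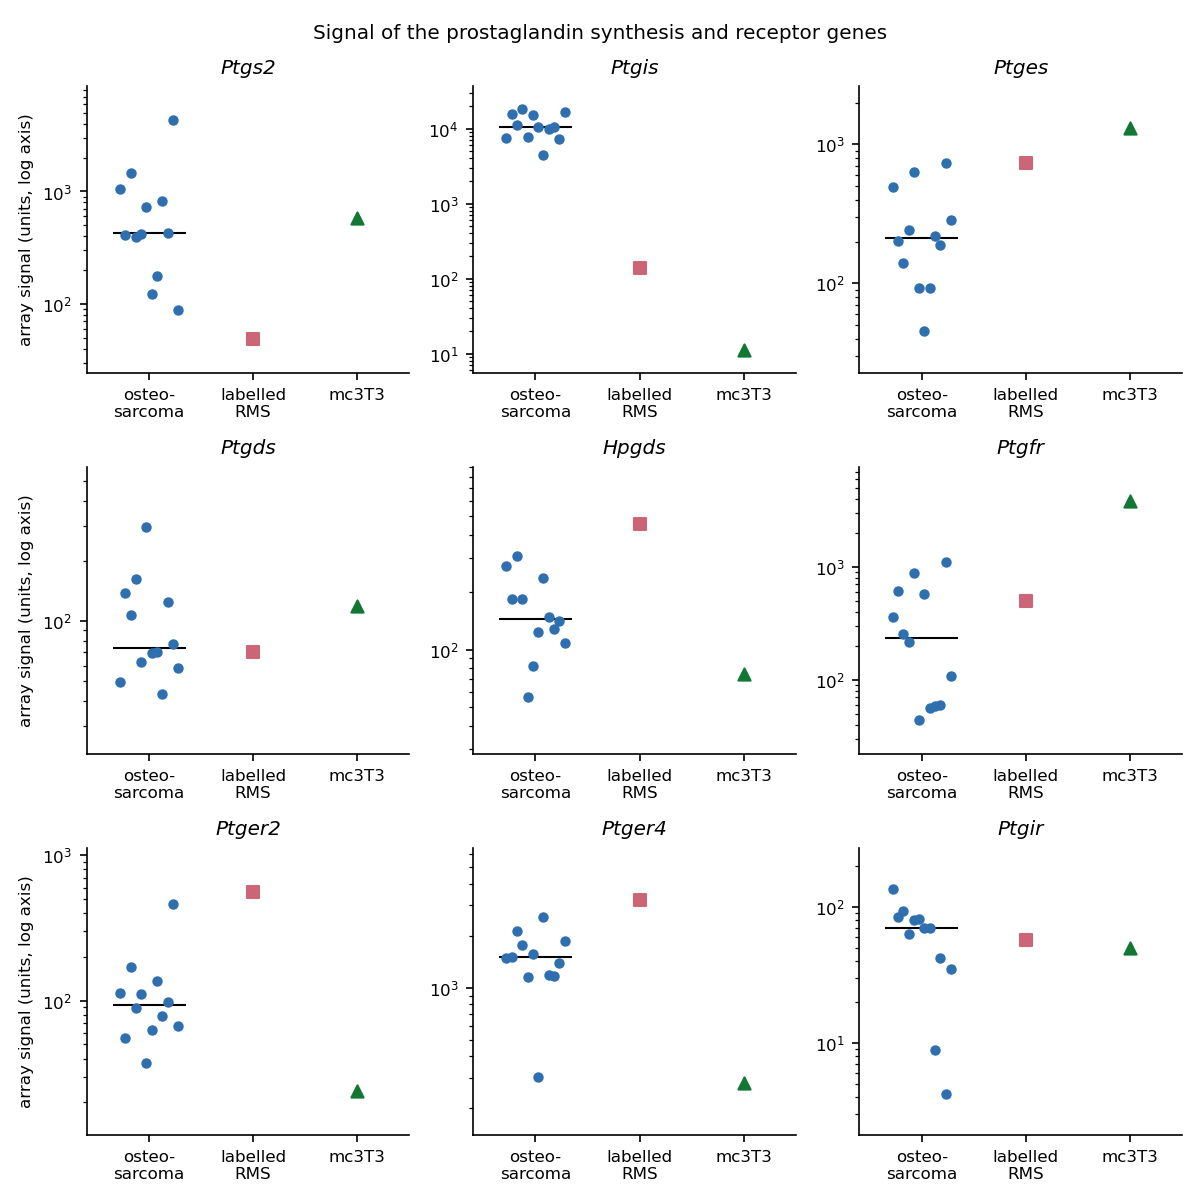
Array signal (log axis, arbitrary units) of the 9 genes with a named probe set in the 12 osteosarcomas (points, left to right in tumour number, bar at the median), the tumour labelled rhabdomyosarcoma (square) and mc3T3 (triangle). Ptgis was higher in all 12 osteosarcomas than on either single array, and Ptgfr and Ptges were highest in mc3T3.

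Arrays were alike in brightness. After scaling, the median signal was 67.1 to 111 and 33.8% to 40.4% of probe sets reached 200 on each array. The osteoblast list (9 of 14 genes measured) summed to a signal of 154062 to 222987 in the osteosarcomas, 127608 in mc3T3 and 44413 in the tumour labelled rhabdomyosarcoma. A few very bright genes can dominate such a sum: the mean log2 level of the list was 12.81 to 13.72 in the osteosarcomas, 9.45 in mc3T3 and 8.22 in the labelled rhabdomyosarcoma. The median difference of the 9 genes, osteosarcoma minus mc3T3, was 5.12, beside -0.02 over all genes. For the macrophage list it was 7.25 and for the endothelial list 3.58. The labelled rhabdomyosarcoma did not show its label in the skeletal muscle list (9 of 9 genes): the sum was 762 there, beside 1049 to 193437 in the osteosarcomas. The mean log2 level of the list was 6.65 there, inside the osteosarcoma range of 6.32 to 13.29. Macrophage genes (12 of 12) summed to 67130 to 159430 in the osteosarcomas, 184063 in the labelled rhabdomyosarcoma and 788 in the cultured mc3T3 line. Endothelial genes (10 of 10) summed to 6452 to 17255, 9550 and 432, in the same order. In bulk RNA, fewer cells of a type and less RNA per cell cannot be told apart, and the part of these other cells in the results below was not tested.

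Ptgs2 encodes the inducible cyclooxygenase COX-2. Its signal in the osteosarcomas was lowest at 87.4 (osteosarcoma 12), had a median of 424 and was highest at 4344 (osteosarcoma 11), with the next tumour, osteosarcoma 3, at 1456. The tumour labelled rhabdomyosarcoma had 48.4 and mc3T3 had 575. The osteosarcomas lay on both sides of mc3T3, with 5 of 12 above it, and all 12 lay above the labelled rhabdomyosarcoma. The lowest signals were under 200, where they cannot be told from background. The spread (SD) of the log2 values exceeded that of 98.2% of genes tested. The mean was 870.2 ± 1166 (SD, n = 12). Neither difference passed the test: osteosarcoma minus mc3T3 was -0.16 ± 1.33 (SE) with a limma adjusted p of 0.955, and labelled rhabdomyosarcoma minus osteosarcoma was -2.79 ± 1.33 with an adjusted p of 0.325. The sign of the first difference turned under other settings, to 0.11 with the mean of both Ptgs2 probe sets. The second probe set also had its highest tumour signal in osteosarcoma 11.

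Ptgis encodes prostacyclin synthase, known from the vessel wall. Its signal was lowest in osteosarcoma 8 at 4477, had a median of 10513 and was highest in osteosarcoma 4 at 18490. The tumour labelled rhabdomyosarcoma had 137 and mc3T3 had 11. All 12 osteosarcomas lay far above both single arrays, and the highest was 4.13 times the lowest. The spread (SD) of the log2 values exceeded that of 73.7% of genes tested. The mean was 11233 ± 4302 (SD, n = 12). The difference was 8.0 ± 0.58 (SE) against mc3T3 and -5.97 ± 0.58 for the labelled rhabdomyosarcoma minus the osteosarcomas, on the log2(signal + 30) scale. A signal of 11 cannot be told from background, since no detection call was used, and the first difference moved between 6.57 and 9.76 with the pseudocount and other settings.

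Ptgis could be set against cell type lists across the osteosarcomas. With the osteoblast list (mean log2 value of its measured genes), Pearson's r was 0.66 (permutation p = 0.0205, adjusted over the 6 relations computed 0.123) and Spearman's rho was 0.71 (permutation p = 0.0123, adjusted 0.0736) over n = 12. Without osteosarcomas 12 and 5, the farthest from the median of the list, r was 0.58, and within the 6 tumours whose label begins with m it was 0.81 (exact permutation p = 0.0417). The relation did not pass after adjustment. With the endothelial list r was -0.15 (permutation p = 0.634, adjusted 0.748), rho was -0.13 (permutation p = 0.683, adjusted 0.783), r was -0.44 without osteosarcomas 10 and 5, and r within the m tumours was -0.07 (exact permutation p = 0.893). In the single arrays, both osteoblast levels, 9.45 in mc3T3 and 8.22 in the labelled rhabdomyosarcoma, lay below the lowest osteosarcoma at 12.81. The endothelial level was 5.95 in mc3T3, below the osteosarcoma range of 8.99 to 10.65, and 9.74 in the labelled rhabdomyosarcoma, inside it. Ptgis was at 11 in mc3T3 and at 137 in the labelled rhabdomyosarcoma. The part of either cell type in these values was not tested.

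Ptges encodes the inducible microsomal prostaglandin E synthase, which works downstream of COX-2. Its signal in the osteosarcomas was 45.3 at the lowest (osteosarcoma 7), 212 at the median and 734 at the highest (osteosarcoma 11), followed by osteosarcoma 5 at 635. The labelled rhabdomyosarcoma had 738 and mc3T3 had 1316. No osteosarcoma reached either single array on this probe set, although on each of the other 2 Ptges probe sets 1 osteosarcoma exceeded the labelled rhabdomyosarcoma. The osteosarcoma mean was 281 ± 222 (SD, n = 12), and mc3T3 was 4.68 times that mean. The differences, -2.44 ± 0.94 (SE, limma adjusted p 0.105) against mc3T3 and 1.63 ± 0.94 (adjusted p 0.424) for the labelled rhabdomyosarcoma, did not pass. Across the osteosarcomas, Ptges and Ptgs2 had an r of 0.50 (permutation p = 0.0969, adjusted 0.291) and a rho of 0.34 (permutation p = 0.289, adjusted 0.578). Without osteosarcomas 11 and 12, r was 0.44, and within the 6 m tumours it was -0.08 (exact permutation p = 0.883). This relation did not pass.

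Ptgds and Hpgds encode the lipocalin-type and haematopoietic prostaglandin D synthases. Ptgds had 43.4 (osteosarcoma 9), 73.8 and 295 (osteosarcoma 6) as its lowest, median and highest osteosarcoma signal, 70.0 in the labelled rhabdomyosarcoma and 119 in mc3T3. The groups overlapped. Ptgds passed the filter on low signal through osteosarcoma 6 alone, with the next tumour at 162, and Ptgir, with a highest signal of 134 on any array, lay just outside it. Neither Ptgds difference passed: -0.29 ± 0.60 (SE, limma adjusted p 0.802) against mc3T3 and -0.29 ± 0.60 (adjusted p 0.861) for the labelled rhabdomyosarcoma. Its relation with the adipocyte list (4 of 8 genes measured) had an r of 0.28 (permutation p = 0.384, adjusted 0.576) and a rho of 0.16 (permutation p = 0.621, adjusted 0.783), with r at 0.08 without osteosarcomas 6 and 4 and 0.53 within the m tumours (exact permutation p = 0.278). Leaving out osteosarcoma 6 alone turned r to -0.27, so the sign rested on that tumour.

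Hpgds had 56.8 (osteosarcoma 5), 145 and 309 (osteosarcoma 3) as its lowest, median and highest osteosarcoma signal. The labelled rhabdomyosarcoma had 452, above all 12 osteosarcomas, and mc3T3 had 74.4, below 11 of 12, but mc3T3 and 9 of the 12 osteosarcomas were under 200, where a signal cannot be told from background. The mean was 165 ± 76.2 (SD, n = 12). The differences of 0.80 ± 0.56 (SE, limma adjusted p 0.389) against mc3T3 and 1.41 ± 0.56 (adjusted p 0.222) for the labelled rhabdomyosarcoma did not pass. Haematopoietic prostaglandin D synthase is known from mast cells and macrophages. Mast cell genes (7 of 10 measured) summed to 500 to 1988 in the osteosarcomas, 806 in mc3T3 and 6358 in the labelled rhabdomyosarcoma. The sum of the macrophage genes was also highest there. The median difference of the labelled rhabdomyosarcoma from the osteosarcomas was 3.43 for the mast cell list and 1.49 for the macrophage list. Their part in the Hpgds value was not tested. Across the osteosarcomas, Hpgds and the macrophage list had an r of 0.40 (permutation p = 0.20, adjusted 0.400) and a rho of 0.59 (permutation p = 0.0478, adjusted 0.143). Without osteosarcomas 7 and 11 r was 0.45, and within the m tumours it was -0.12 (exact permutation p = 0.833). With the mast cell list r was -0.10 (permutation p = 0.748, adjusted 0.748), rho was -0.09 (permutation p = 0.783, adjusted 0.783), r was -0.10 without osteosarcomas 9 and 10 and 0.23 within the m tumours (exact permutation p = 0.642). Neither passed after adjustment.

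Ptgfr encodes FP, the receptor for prostaglandin F. Its osteosarcoma signal was 44.0 at the lowest (osteosarcoma 6), 236 at the median and 1112 at the highest (osteosarcoma 11), with osteosarcoma 5 next at 890.0. The labelled rhabdomyosarcoma had 498 and mc3T3 had 3843. No osteosarcoma reached mc3T3 on any of the 5 Ptgfr probe sets, whereas the labelled rhabdomyosarcoma lay inside the osteosarcoma range. The spread among the tumours (SD of the log2 values) exceeded that of 98.1% of genes tested, and 5 of the 12 were under 200, where a signal cannot be told from background and the tumours have no order. The mean was 362 ± 360.0 (SD, n = 12), and mc3T3 was 10.6 times that mean. The difference against mc3T3 was -3.92 ± 1.32 (SE, limma adjusted p 0.0645), which did not pass. It passed without osteosarcoma 5 (adjusted p 0.0475) or without osteosarcoma 11 (0.0386), and the adjusted p ranged from 0.0284 to 0.0985 over all settings. For the labelled rhabdomyosarcoma the difference was 1.05 ± 1.32 (adjusted p 0.759).

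Ptger2 encodes EP2, a prostaglandin E receptor that raises cyclic AMP. It had 37.1 (osteosarcoma 6), 93.6 and 466 (osteosarcoma 11) as its lowest, median and highest osteosarcoma signal, with the next tumour, osteosarcoma 3, at 172. The labelled rhabdomyosarcoma had 562 and mc3T3 had 23.8. All 12 osteosarcomas lay between the single arrays, and 11 of the 12 were under the filter value of 200, where a signal cannot be told from background. The differences were 1.30 ± 0.70 (SE, limma adjusted p 0.254) against mc3T3 and 2.16 ± 0.70 (adjusted p 0.130) for the labelled rhabdomyosarcoma, and neither passed. Without osteosarcoma 11 the second was 2.34 with an adjusted p of 0.0150, and over all settings that p ranged from 0.0150 to 0.389.

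Ptger4 encodes EP4, another cyclic AMP-raising receptor for prostaglandin E. Its signal was 301 at the lowest (osteosarcoma 7), 1500.0 at the median and 2566 at the highest (osteosarcoma 8). The labelled rhabdomyosarcoma had 3231 and mc3T3 had 279. On this brightest probe set, all 12 osteosarcomas again lay between the single arrays. Osteosarcoma 7 stood close to mc3T3 while the other 11 began at 1155. The mean was 1509 ± 567 (SD, n = 12), 5.40 times mc3T3. The difference against mc3T3 was 2.18 ± 0.70 (SE, limma adjusted p 0.0540), just short of the threshold. Without osteosarcoma 7 it was 2.37 with an adjusted p of 0.00108, and over all settings the p ranged from 0.00108 to 0.196. For the labelled rhabdomyosarcoma the difference was 1.22 ± 0.70 (adjusted p 0.424). On the second Ptger4 probe set, 11 of the 12 osteosarcomas lay above mc3T3, and the difference against mc3T3 was 0.82. The osteosarcomas had 14.0 to 175 there, under 200, where a signal cannot be told from background. With the mean of probe sets, the limma adjusted p against mc3T3 was 0.131. EP4 is also known from macrophages: the macrophage sum was 68284 in osteosarcoma 7, near the lowest of the tumours at 67130, beside a median of 127607. The sum was as low in osteosarcoma 11, where Ptger4 had 1385. The mean log2 level of the macrophage list was lowest in osteosarcoma 7 at 11.43 and second lowest in osteosarcoma 11 at 11.85. The next level was 12.12, in osteosarcoma 6. The part of macrophages in the Ptger4 values was not tested.

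Ptgir encodes IP, the receptor for the prostacyclin that Ptgis makes. Its signal was 4.2 (osteosarcoma 11), 69.6 and 134 (osteosarcoma 1) as the lowest, median and highest osteosarcoma, 56.8 in the labelled rhabdomyosarcoma and 49.7 in mc3T3. It was not tested in the filtered fit and could not be told from background on any array, and both single arrays lay inside the osteosarcoma range. The bright Ptgis signal thus stood beside a receptor probe set that stayed under 200 on all 14 arrays, 2 probe sets whose levels are not on a common scale.

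**Figure D2:**
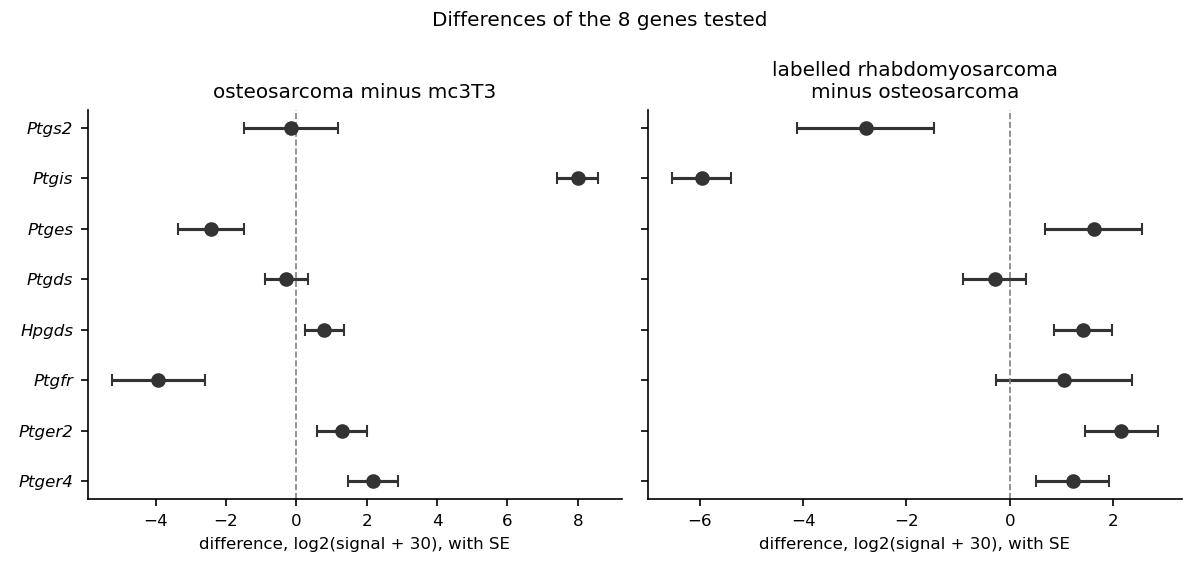
Difference of each of the 8 genes tested, with its standard error, on the log2(signal + 30) scale: osteosarcoma minus mc3T3 (left) and labelled rhabdomyosarcoma minus osteosarcoma (right). The Ptgis differences of 8.0 and -5.97 lie apart from the others, and the Ptgs2 and Ptgfr bars are the widest, at ± 1.33 and ± 1.32.

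The tumours did not rank alike for all members. Osteosarcoma 11 was highest for 4 of the 8 genes tested (Ptgs2, Ptges, Ptgfr and Ptger2), while it was highest for 6.82% of all genes. Osteosarcomas 3, 4, 6 and 8 were highest for Hpgds, Ptgis, Ptgds and Ptger4, respectively. In osteosarcoma 11, Ptgis was at 7307, the second lowest of the tumours. The same tumour had the lowest macrophage sum (67130) and the lowest skeletal muscle sum (1049), and a fibroblast sum (8 of 8 genes) of 113730 against a median of 73821. Their part in the 4 high values was not tested. The count of 4 was also found after quantile normalization, scaling to the 75th percentile and averaging of probe sets. This count was made after the values were seen.

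**Figure D3:**
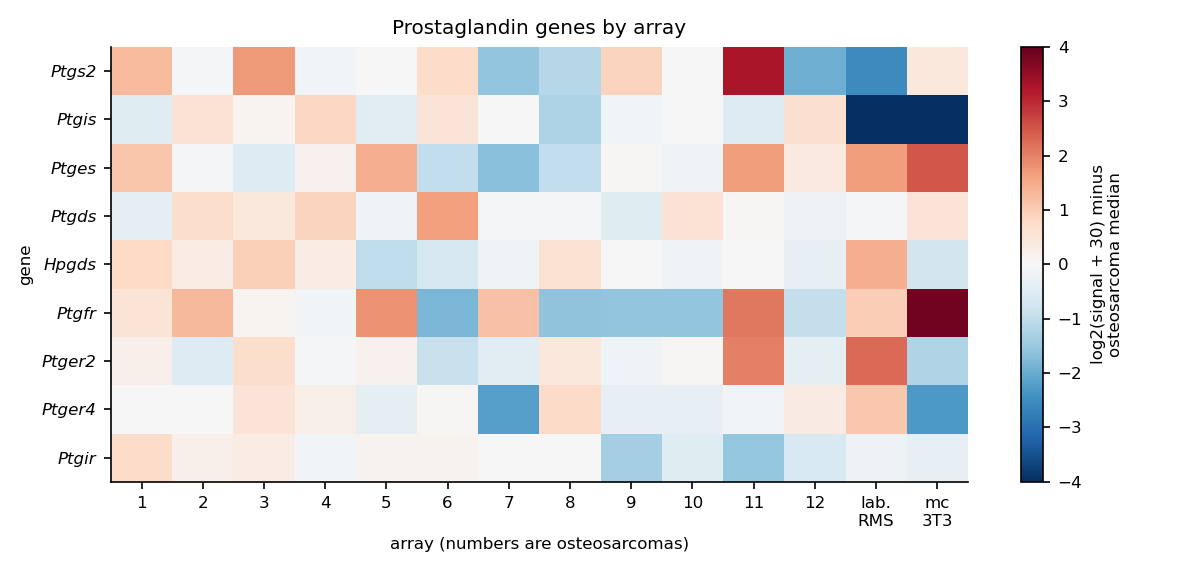
log2(signal + 30) of each gene minus its median over the 12 osteosarcomas, by array (columns 1 to 12 are the osteosarcomas, then the labelled rhabdomyosarcoma and mc3T3), with colours limited to -4 to 4. Column 11 is high for Ptgs2, Ptges, Ptgfr and Ptger2, and Ptgis is beyond the colour limit in both single arrays.

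As a description, the genes most like each member over the 12 osteosarcomas were found by Pearson's r of log2 values, without a test. Ptges was closest to Cdkn2a (0.93), Il13ra1 (0.92) and Cd44 (0.92). Ptgfr was closest to Emp3 (0.92), Brinp3 (0.90) and Tnfrsf11b (0.90), the last encoding osteoprotegerin, the decoy receptor of RANKL. Ptger4 was closest to Phgdh (0.92), Sgpp1 (0.91) and Rab15 (0.89), and Ptger2 to Mboat2 (0.89), Pxylp1 (0.89) and Rpe (0.85). Ptgs2 was closest to Anxa3 (0.87), Glrb (0.86) and Pfkl (0.85), and Hpgds to Tspan31 (0.86), Aplp2 (0.85) and Cdk2 (0.84). Ptgis was closest to Kank1 (0.86), Actr5 (0.85) and Phlda1 (0.82), and Ptgds to Cldn1, Gpalpp1 and Calml3 (0.82 each). These points share arrays and scaling, and each set is the highest of 11815 genes over 12 samples. Most signals of Ptgds, Hpgds and Ptger2, and all of Cldn1 (3.20 to 48.1), were under 200, where they cannot be told from background. Without the tumour highest for Ptger2, r fell to 0.75 for Mboat2 and 0.71 for Pxylp1, while Rpe had 0.87. Without the tumour highest for Ptgds, r was 0.79 for Cldn1, 0.80 for Gpalpp1 and 0.67 for Calml3.

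Other genes of the prostanoid pathway were read from a list in parts, named here as listed. Its arachidonate release part holds Pla2g7, a platelet-activating factor hydrolase, and its receptor part holds Ptgfrn, not itself a prostanoid receptor. Of the 28 genes on this list, 24 had a named probe set and 21 were tested. Against mc3T3, 5 rose in the osteosarcomas, 1 fell and 15 did not pass, with a median difference of 1.26, beside 8.59% higher, 4.58% lower and a median of -0.02 over all genes. Of these, 2 of 7 tested genes for arachidonate release rose, 1 of 6 synthases and reductases, 0 of 3 receptors, and 2 of 5 genes of removal and transport, where 1 fell.

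Hpgd, the dehydrogenase that inactivates prostaglandins, had the largest change. Its signal was 357 at the lowest (osteosarcoma 5), 4090 at the median and 15786 at the highest (osteosarcoma 8), with 1033 in the labelled rhabdomyosarcoma and 3.10 in mc3T3. All 12 osteosarcomas lay above mc3T3 and 11 above the labelled rhabdomyosarcoma. The difference from mc3T3 was 7.01 ± 1.26 (SE, limma adjusted p 0.00181). A signal of 3.10 cannot be told from background, and the difference moved between 4.73 and 10.0 over the settings. Mgll, a lipase that frees arachidonic acid from a monoglyceride, had 501, 1189 and 2310 as lowest, median and highest, beside 229 in the labelled rhabdomyosarcoma and 9.0 in mc3T3. It rose by 5.00 ± 0.57 against mc3T3 (adjusted p 4.2e-05), with 3.60 to 6.92 over the settings. It was also the 1 gene of the 21 that passed in the labelled rhabdomyosarcoma, where it fell by 2.27 ± 0.57 (adjusted p 0.0449), with a median of 0.05 over the list. That call was lost without any 1 of osteosarcomas 2, 3, 6, 7, 9, 10, 11 and 12 (adjusted p 0.0512 to 0.0636), and also without the filter, with the mean of probe sets and with the m or the c and o tumours alone (0.0578 to 0.159).

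Cbr1, a carbonyl reductase that can turn prostaglandin E into prostaglandin F, rose by 4.42 ± 0.43 (SE), with 3.11 to 6.09 over the settings. It had 578, 838 and 1591 as lowest, median and highest, 821 in the labelled rhabdomyosarcoma and 11.7 in mc3T3. Pla2g7, the secreted platelet-activating factor hydrolase, rose by 3.13 ± 0.58 (limma adjusted p 0.00225), and Slco2a1, the prostaglandin uptake transporter, by 1.65 ± 0.42 (0.0164). The Slco2a1 call was lost with the mean of its probe sets (0.90, adjusted p 0.212) and with the c and o tumours alone (1.46, adjusted p 0.0527). Ptgr1, a reductase that inactivates prostaglandins and leukotriene B, fell by 1.62 ± 0.37, from 4091 on the single mc3T3 array to between 816 and 1751 in the osteosarcomas. Pla2g4a, the cytosolic phospholipase that supplies most arachidonic acid, had 1488 to 3859 in the osteosarcomas, 944 in the labelled rhabdomyosarcoma and 1102 in mc3T3, and did not pass in either comparison (adjusted p 0.0517 and 0.0663). The thromboxane synthase Tbxas1 had 97.2 to 567 in the osteosarcomas, 1217 in the labelled rhabdomyosarcoma and 75.7 in mc3T3, and did not pass either (0.107 and 0.155). Macrophage and endothelial genes were near background in mc3T3 and high in the tumours, and their part in these 5 rises was not tested.

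**Figure D4:**
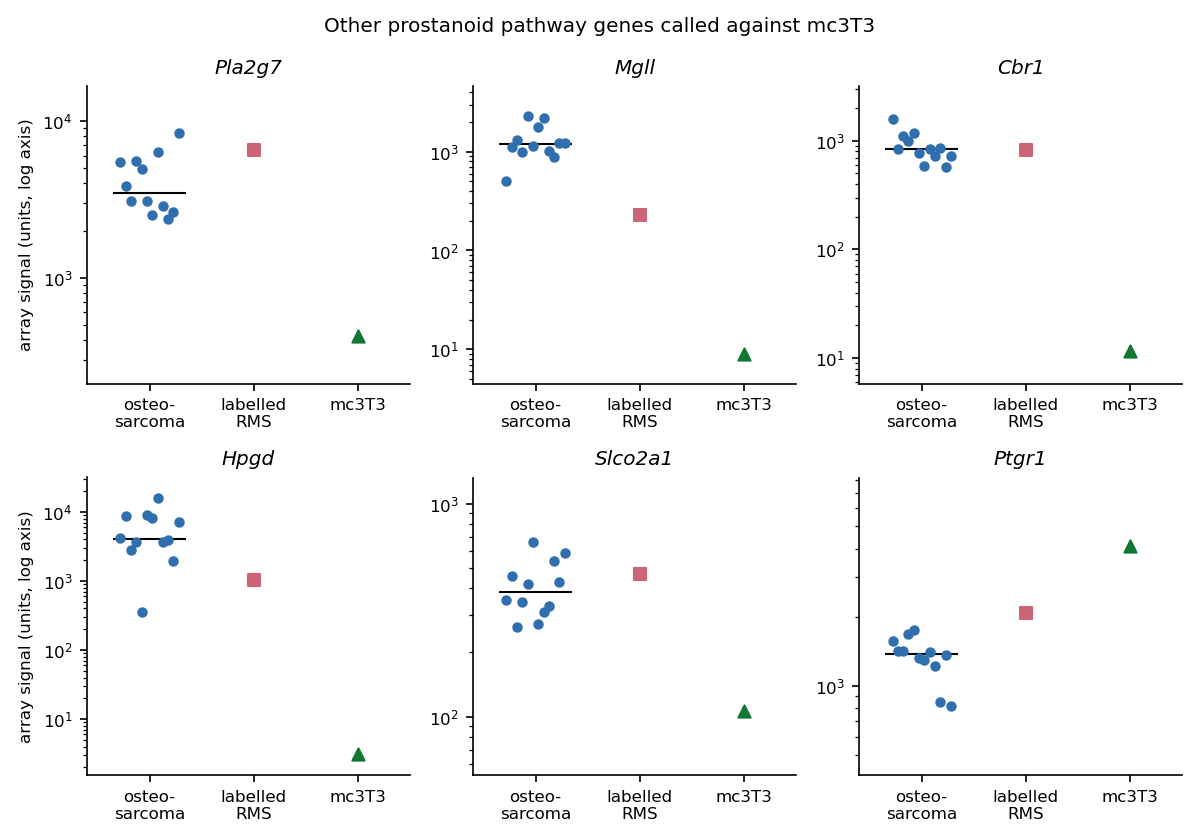
Array signal (log axis, arbitrary units) of the 6 other prostanoid pathway genes that passed against mc3T3, with osteosarcomas as points (bar at the median), the labelled rhabdomyosarcoma as a square and mc3T3 as a triangle. All 12 osteosarcomas lay above mc3T3 for 5 of the genes and below it for Ptgr1.

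The other branch of arachidonic acid use, the leukotriene and lipoxygenase genes, had 12 listed, 11 named and 6 tested. Ltc4s, the leukotriene C synthase, was the 1 that rose against mc3T3, by 2.79 ± 0.69 (SE, limma adjusted p 0.0147), and 0 fell. That call was lost with the c and o tumours alone (adjusted p 0.0940). Its signal was 214, 398 and 1538 as lowest, median and highest, with 2037 in the labelled rhabdomyosarcoma and 35.7 in mc3T3. In the labelled rhabdomyosarcoma 0 of 6 passed, and Cysltr1, a leukotriene receptor, was nearest with 2.33 ± 0.60 (0.0503). Over all genes tested, 8.59% passed as higher and 4.58% as lower against mc3T3, and 1.19% and 1.76% in the labelled rhabdomyosarcoma. The list medians were 1.20 and 1.62, beside -0.02 and 0.05 over all genes.

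Targets of the cyclic AMP-raising receptors were read from a list of 15 genes, of which 14 were named and 12 tested. Against mc3T3, 5 rose, 0 fell and 7 did not pass, with a median of 1.21, beside 8.59% higher, 4.58% lower and a median of -0.02 over all genes. Those that rose were Crem (3.12 ± 0.41 SE, limma adjusted p 0.000137), Dusp1 (3.0 ± 0.53, 0.00170), Fos (3.10 ± 0.56, 0.00178), Fosl2 (1.99 ± 0.44, 0.00808) and Tnfsf11 (4.71 ± 0.93, 0.00356). Many stimuli other than cyclic AMP are known to raise these genes. Tnfsf11 was also the 1 gene that fell in the labelled rhabdomyosarcoma, by 4.73 ± 0.93 (0.0125): it had 451, 697 and 4368 as lowest, median and highest osteosarcoma signal, 4.10 in the labelled rhabdomyosarcoma and 4.60 in mc3T3. Every osteosarcoma lay above both single arrays, where the signal cannot be told from background, and the size moved between -7.42 and -3.25 with the pseudocount. The Tnfsf11 call in the labelled rhabdomyosarcoma was lost with a pseudocount of 100 (adjusted p 0.0536) or the c and o tumours alone (0.107), and the Fosl2 call against mc3T3 with the c and o tumours alone (0.0609). Against mc3T3, Tnfsf11 moved between 3.24 and 7.28 and Crem, at 17.0 in mc3T3, between 2.04 and 4.39.

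Osteosarcoma 11, where Ptgs2, Ptges, Ptgfr and Ptger2 were highest, was also highest for 6 of these 12 genes, beside the same 6.82% of all genes. They were Tnfsf11 (4368, next tumour 2092), Crem (722, next 509), Nr4a1 (1776, next 1124), Nr4a3 (410, next 246), Dusp1 (3592, next 2674) and Il6 (426, next 280). The count was 6 or 7 under the other scalings and probe set rules. It rests on 1 tumour and was made after the values were seen, and Ptger4 in that tumour, at 1385, lay below the osteosarcoma median.

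**Figure D5:**
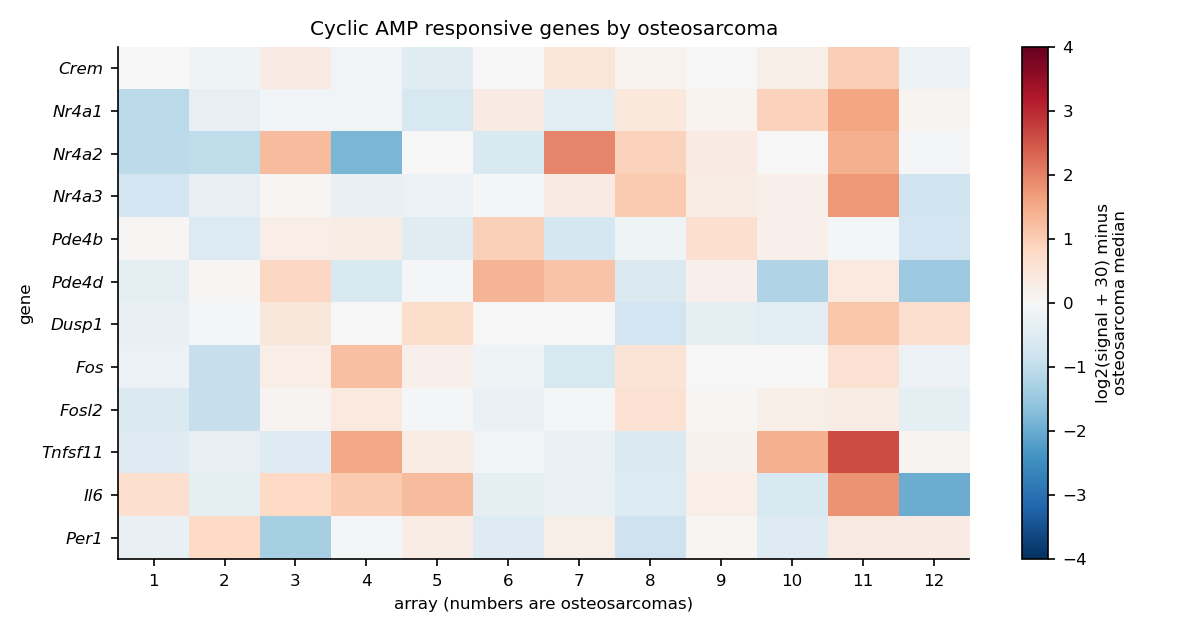
log2(signal + 30) of the 12 tested cyclic AMP-responsive genes minus each gene's median over the osteosarcomas, for osteosarcomas 1 to 12. Column 11 is the highest for 6 genes, most of all for Tnfsf11, and Fos and Fosl2 were highest in other tumours.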

How the data were processed

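Biotin-labelled RNA of 14 samples was hybridised to Affymetrix mouse arrays of 45101 probe sets. The deposited values are intensities (signals) that the authors made with GCOS, per the submitters' processing notes, on a linear scale brought to a common trimmed mean. On the files, the mean after trimming 2% of values at each end was 500.0 on each array. For GCOS, no version or background setting was given in the sources used here. No columns were identical. Gene names came from the platform annotation, updated by Entrez identifier for 34741 of the 34945 probe sets with 1 symbol. A further 932 had several genes and 9160 none, and these were not named. Control probe sets (64) were left out.

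Each gene was its brightest probe set (highest mean over 14 arrays) among those that reached a signal of 200 on 1 array or more. Values were taken as log2(signal + 30), which understates changes of low signals. limma 3.58.1 in R 4.3.3 (lmFit, eBayes) was fitted on all 11815 genes in a model of 3 groups, with 11 residual degrees of freedom that come from the osteosarcomas alone. The single arrays are assumed to vary like them. P-values were two-sided and adjusted by Benjamini-Hochberg over all genes, with calls where the adjusted p was below 0.05 and the log2 change 1 or more. At an unadjusted p under 0.05 there were 3258 and 1888 genes in the 2 comparisons. For relations, 100000 permutations were drawn (every order where n = 6), and 6 relations were run, since those with Ptgs1 were not analysed here. The fit was tested on simulated data.

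The members and lists were chosen with earlier results of these data known. Genes named in the text were the members, every called gene of the prostanoid and leukotriene lists, and the 3 genes with the highest r for each member. Pla2g4a, Tbxas1, Cysltr1 and the cyclic AMP-responsive genes were named after their values were seen. Alternatives were other pseudocounts, scalings, filters, probe set rules, prior settings and subsets of tumours. Promoter sequences came from RefSeq (GRCm38.p6).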

Additional observations from a re-analysis of the deposited data

How the results depend on the processing

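Ptgis kept its direction in both comparisons under all 22 settings, including each osteosarcoma left out. The number of the 8 genes called against mc3T3 was 1, and it was 2 with a pseudocount of 100, with a trended and robust prior or with the c and o tumours alone, 3 with the m tumours alone, and 1 to 2 with each osteosarcoma left out. In the labelled rhabdomyosarcoma it was 1, with 2 for the m tumours alone and 1 to 2 with an osteosarcoma left out. The other prostanoid genes called were 6 against mc3T3 (6 to 8 with an osteosarcoma left out) and 1 in the labelled rhabdomyosarcoma, with 0 without the filter, with the mean of probe sets or with the c and o tumours alone, 2 after quantile or 75th percentile scaling, and 0 to 1 with an osteosarcoma left out. Over all genes, 1556 calls became 914 with the c and o tumours alone (1422 to 1707 with an osteosarcoma left out), and 349 became 157 (300 to 384). The Ptgs2 difference from mc3T3 turned to 0.11 with the mean of probe sets, 0.34 with the c and o tumours alone, 0.0090 without osteosarcoma 7 and 0.044 without osteosarcoma 12 (-0.43 to 0.044 with an osteosarcoma left out). Relations moved between 0.60 and 0.78 for Ptgis with the osteoblast list (0.78 without osteosarcoma 4, permutation p adjusted 0.0264, the 1 alternative in which a relation passed), -0.31 and 0.077 for Ptgis with the endothelial list, and -0.27 and 0.54 for Ptgds with the adipocyte list. The causes were not tested.

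Fewer tumours enter the subset fits, and the letters c, o and m are read from the labels, which do not explain them. No paired analysis was possible because the labels give no replicate numbers. The number of arrays limits precision: each contrast rests on 1 array on one side. Signals under 200, which include all of Ptgir and most of Ptgds, Hpgds and Ptger2, cannot be told from background.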
